A study of Mus musculus with 6 samples.

Results

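The hedgehog core genes are 9 genes that carry the signal from the ligand to the nucleus: the ligand Shh, the receptor Ptch1, the transducer Smo, the transcription factors Gli1, Gli2 and Gli3, the ligand-binding antagonist Hhip and the co-receptors Cdon and Boc. They were taken as a named list out of 18193 genes with a probe set of their own, and every probe set that maps to 1 of them alone in the platform annotation was used. That gave 23 probe sets of the 45037 on the array that are not controls. No probe set that maps to several genes held a member. A probe set counted as measured over background when its mean log2 signal was over 7 in OC1-KO or in WT retinas, and 17 of the 23 passed, of 20888 in all. Each of the 9 genes had at least 1 probe set among those 17, and the 6 below the filter are named as such.

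In the hedgehog pathway, Ptch1 holds Smo inactive until a ligand binds Ptch1, helped by co-receptors such as Cdon, Boc and Gas1. Active Smo moves into the primary cilium, and the Gli factors then turn from repressors, mainly made from Gli3, into activators. Gli1, Ptch1 and Hhip are themselves target genes, so their transcripts are widely read as an output of the pathway, and Ptch1 and Hhip damp it by binding ligand. In the embryonic mouse retina, ganglion cells make Shh, and neighbouring progenitor cells respond to it.

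The retinas came from mouse embryos labelled E14, littermates of mixed strain background, 3 OC1-KO and 3 WT, with 1 array per embryo. OC1-KO embryos lack Onecut1, a cut-homeodomain transcription factor of retinal precursors and horizontal cells, in the whole body and not in the retina alone. The line was made from R1 embryonic stem cells in "Swiss" mice and was then crossed to C57Bl/6 for a few generations, so alleles around Onecut1 can differ between the genotypes along with it. In a whole retina, fewer cells of a type and less RNA per cell cannot be told apart.

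The median signal of an array was 85.0 to 104, and each array had 43.4% to 46.7% of its probe sets over a log2 signal of 7. All 11 retinal progenitor markers measured had a log2 signal of at least 8.64 in each array. The Onecut1 probe sets ranged over 7.51 to 9.67 in OC1-KO and over 8.43 to 9.30 in WT retinas, and since the sources used here do not place them relative to the deleted part, they check nothing about the knockout. The arrays of both embryos numbered 3 stood apart: the summed linear signal of 13 lens markers was 12714 in OC1-KO 3 and 25607 in WT 3, against 299 to 511 in the other 4 arrays. The sum of 8 red blood cell markers was 24013 in OC1-KO 3 and 16607 in WT 3, against 99.3 to 763 elsewhere. Signals of different probe sets have different yields, so levels are compared here only within a probe set.

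Shh, the ligand, had log2 signals of 10.74, 10.45 and 10.11 in OC1-KO embryos 1 to 3, against 10.35, 10.27 and 10.43 in WT embryos 1 to 3, on its brighter probe set (1436869_at). The groups overlapped, and OC1-KO 1 was the highest and OC1-KO 3 the lowest of the 6 arrays. The means were 10.43 ± 0.31 in OC1-KO and 10.35 ± 0.08 in WT (SD, n = 3 each), so that OC1-KO exceeded WT by 0.08 in log2 units (SE 0.19), with a 95% interval of -0.37 to 0.54 (limma, unadjusted p = 0.680). The pairs of embryos with the same number differed by 0.39, 0.18 and -0.32. Without OC1-KO 1 the difference was -0.07, so its sign rested on that array.

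The other Shh probe set (1427571_at) lay below the filter, at 5.34, 5.11 and 4.43 in OC1-KO and 2.52, 4.04 and 3.35 in WT retinas. Every OC1-KO value was above every WT value. The means were 4.96 ± 0.48 in OC1-KO and 3.30 ± 0.77 in WT (SD, n = 3 each), so that OC1-KO exceeded WT by 1.66 in log2 units (SE 0.47, limma fit of all probe sets, unadjusted p = 0.0132, adjusted p = 1.00). The brighter Shh probe set did not share this difference, and all 6 values of the dim one lay under the filter. With no filter, 1305 of all 45037 probe sets had an unadjusted p under 0.05 by limma. Non-overlap of the genotypes was counted over the filter alone, where 3.56% of probe sets showed it.

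Ptch1, the receptor, measured 11.77, 11.82 and 11.60 in OC1-KO and 11.73, 11.78 and 11.70 in WT retinas on its brightest probe set (1428853_at). The 6 values lay within a narrow band, with both embryos numbered 3 lowest. The means of 11.73 ± 0.12 in OC1-KO and 11.74 ± 0.04 in WT (SD, n = 3 each) differed by -0.01, with a 95% interval of -0.34 to 0.33 (limma, unadjusted p = 0.967). That interval is the narrowest of any member.

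A second Ptch1 probe set (1439663_at) measured 7.92, 7.60 and 5.82 in OC1-KO and 7.63, 7.50 and 6.03 in WT retinas. Here the arrays split by embryo number and not by genotype, with embryos 3 far below the others in both. The genotypes differed by 0.06, with a 95% interval of -1.46 to 1.59, which narrowed to -0.29 to 0.42 with embryo number as a block. The third Ptch1 probe set (1450824_at) was below the filter, at 2.01 to 2.18 in OC1-KO and 2.11 to 3.19 in WT retinas.

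Smo, the transmembrane protein that passes the signal into the cell, measured 11.22, 11.34 and 11.38 in OC1-KO and 11.59, 11.32 and 11.45 in WT retinas (1427049_s_at). OC1-KO 1 was the lowest and WT 1 the highest, and the groups overlapped. The means were 11.31 ± 0.08 in OC1-KO and 11.45 ± 0.13 in WT (SD, n = 3 each). The log2 difference of -0.14 had an SE of 0.15 and a 95% interval of -0.49 to 0.21 (limma, unadjusted p = 0.374), and it was the largest in size among the brightest probe sets of the 9 genes. The second Smo probe set (1427048_at) differed by -0.04 (SE 0.16), with 10.24 to 10.63 in OC1-KO and 10.43 to 10.58 in WT retinas. The dim one (1442215_at), below the filter, was lower in OC1-KO in 3 of 3 pairs, by a mean of 0.69 on a log2 scale with an SE of 0.93.

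Gli1, the activator whose transcript is itself induced by the pathway, has 1 probe set (1449058_at). It measured 10.10, 9.94 and 9.65 in OC1-KO embryos 1 to 3, against 10.26, 10.07 and 9.75 in WT embryos 1 to 3. OC1-KO was lower than WT in 3 of 3 pairs, by 0.17, 0.14 and 0.09 on the log2 scale. The groups as a whole overlapped, and the values fell from embryo 1 to embryo 3 in both genotypes. The means were 9.90 ± 0.22 in OC1-KO and 10.03 ± 0.26 in WT (SD, n = 3 each), which is -0.13 in log2 units (SE 0.20), with a 95% interval of -0.60 to 0.34 (limma, unadjusted p = 0.529). With embryo number as a block the interval was -0.40 to 0.14, so the difference stayed within its error. Of the 20888 probe sets over the filter, 13.1% were lower in OC1-KO in 3 of 3 pairs, and of the 17 member probe sets 2 were (Gli1 and a Hhip probe set, 11.8%), a share close to that of all probe sets.

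Gli2, the main activator early in the response, measured 10.70, 10.38 and 10.71 in OC1-KO and 10.87, 10.63 and 10.54 in WT retinas (1459211_at). The groups overlapped and the sign changed between pairs, with -0.16, -0.25 and 0.16. The log2 difference was -0.08 with an SE of 0.17 and a 95% interval of -0.49 to 0.32 (limma, unadjusted p = 0.637). The second Gli2 probe set (1446086_s_at) differed by 0.02 (SE 0.15), with 9.24 to 9.37 in OC1-KO and 9.20 to 9.50 in WT retinas.

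Gli3, the main source of the repressor, measured 9.83, 10.10 and 9.64 in OC1-KO and 9.75, 10.16 and 9.53 in WT retinas (1456067_at). The order of the embryos was the same in both genotypes, 2 highest and 3 lowest. The log2 difference between genotypes was 0.04 with a 95% interval of -0.47 to 0.55 (limma, unadjusted p = 0.856). The second Gli3 probe set (1455154_at) differed by -0.05 (SE 0.18). The third (1450525_at), below the filter, scattered over 4.78 to 6.08 in OC1-KO and 2.24 to 5.61 in WT retinas, a difference of 1.73 whose 95% interval of -0.60 to 4.05 includes 0.

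Hhip, the membrane antagonist that binds hedgehog ligands, had 4 probe sets, all over the filter. The brightest (1455277_at) measured 9.30, 9.18 and 8.20 in OC1-KO and 9.22, 8.96 and 8.46 in WT retinas. Both embryos numbered 3 lay below the other 4, and the genotypes overlapped. The means of 8.89 ± 0.60 in OC1-KO and 8.88 ± 0.39 in WT (SD, n = 3 each) differed by 0.01, with a 95% interval of -0.79 to 0.81 (limma, unadjusted p = 0.970).

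None of the other Hhip probe sets passed an adjusted threshold. One (1421426_at) measured 7.75, 7.22 and 7.42 in OC1-KO and 6.91, 7.31 and 7.02 in WT retinas, a difference of 0.39 (SE 0.20) with the smallest unadjusted p of the 17, 0.0902 by limma. Another (1438083_at) measured 6.84, 7.23 and 6.68 in OC1-KO and 6.90, 7.72 and 7.39 in WT retinas, a difference of -0.42 (SE 0.25) in the opposite direction. Its unadjusted p was 0.142 by limma, 0.0421 with embryo number as a block (adjusted p = 0.999) and 0.0345 without WT 1, and WT 1 was close to OC1-KO 1. It passed the filter through its WT mean alone. The remaining one (1437933_at) differed by 0.28 (SE 0.22), with 7.71 to 8.48 in OC1-KO and 7.67 to 7.83 in WT retinas.

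Cdon, a co-receptor of the immunoglobulin superfamily, measured 11.22, 11.12 and 11.63 in OC1-KO and 11.34, 11.13 and 11.35 in WT retinas (1434957_at). Embryo 3 was the highest of each genotype, and the groups overlapped. The log2 difference was 0.05 with an SE of 0.18 and a 95% interval of -0.38 to 0.49 (limma, unadjusted p = 0.777). Cdon lies on chromosome 9, as Onecut1 does. Its other probe set (1421452_at), below the filter, differed by 0.03.

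Boc, the co-receptor most like Cdon, measured 6.96, 7.58 and 7.62 in OC1-KO and 6.99, 7.43 and 7.78 in WT retinas (1427516_a_at). The values were ordered by embryo number in both genotypes, 1 lowest and 3 highest. The log2 difference was -0.02 with a 95% interval of -0.66 to 0.62 (limma, unadjusted p = 0.946). The second Boc probe set (1426869_at) passed the filter through its WT mean alone and differed by -0.16 (SE 0.25). The third (1427517_at) was below the filter, with values from 0.23 to 4.27 in OC1-KO and from 0.80 to 3.76 in WT retinas.

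**Figure D1:**
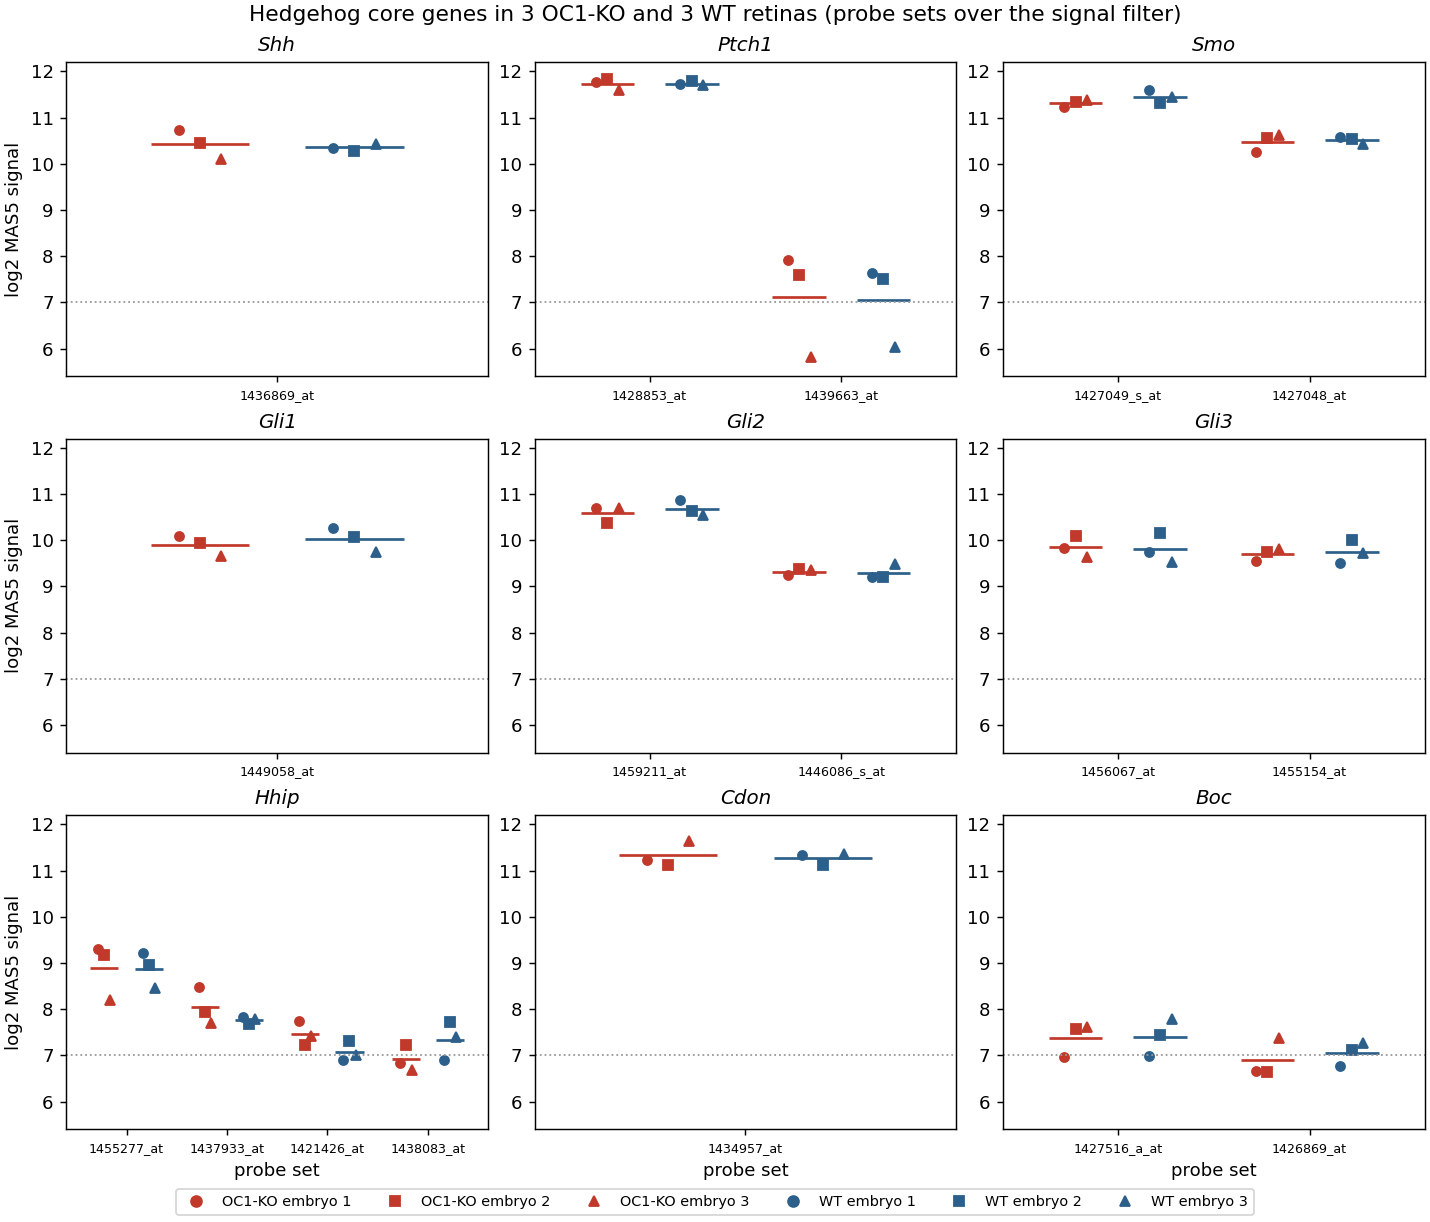
Log2 MAS5 signal (y axis) of the 17 hedgehog probe sets over the filter (x axis, by gene) in 3 OC1-KO (red) and 3 WT (blue) retinas. Each point is 1 array, with its shape giving the embryo number, bars are group means, and the dotted line is the filter at 7. The genotypes overlap in each probe set, and embryos 3 (triangles) lie lowest in both genotypes for Ptch1, Gli1 and Hhip 1455277_at.

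No member differed between the genotypes after adjustment. Of the 17 probe sets over the filter, 0 had an adjusted p under 0.05 by limma, as did 0.0% of all 20888. At an unadjusted p under 0.05 there were 0 of 17 members, against 1.01% of all probe sets (210, of which 77 were higher and 133 lower in OC1-KO). The methods' t-test called 0 of 17 members at that threshold without adjustment, against 0.986% of all. Limma with embryo number as a block called 1 of 17 (5.88%), the Hhip probe set above, against 4.37% of all probe sets, a share close to the background. Values of OC1-KO and WT did not overlap in 0 of 17 member probe sets, against 3.56% of all.

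The 17 log2 differences ran from -0.42 to 0.39, with 8 above and 9 below 0, a median of -0.01 and a median size of 0.06, beside -0.01 and 0.10 over all probe sets. On the brightest probe set of each gene they ran from -0.14 to 0.08. These differences share their arrays and are not independent of each other. The 95% intervals of those 9 reached no further than -0.79 and 0.81, the bounds for Hhip, and the other 8 genes lay between -0.66 and 0.62. With embryo number as a block, the intervals of all 9 lay within -0.46 and 0.51, and those of Hhip (-0.33 to 0.36) and Boc (-0.32 to 0.28) were the most narrowed. Differences inside a gene's own interval could not be resolved with 3 arrays per genotype in the fit that gave that interval. In embryos 1 and 2 alone, without the arrays that stood apart, 0 member probe sets had an unadjusted p under 0.05 by limma. In the same fit 477 of all probe sets over the filter did, so the count of 0 does not set the members apart. The filter was applied anew to these arrays, and Boc 1426869_at fell below it and was not tested. The brightest probe sets differed by -0.21 (Gli2) to 0.29 (Shh).

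**Figure D2:**
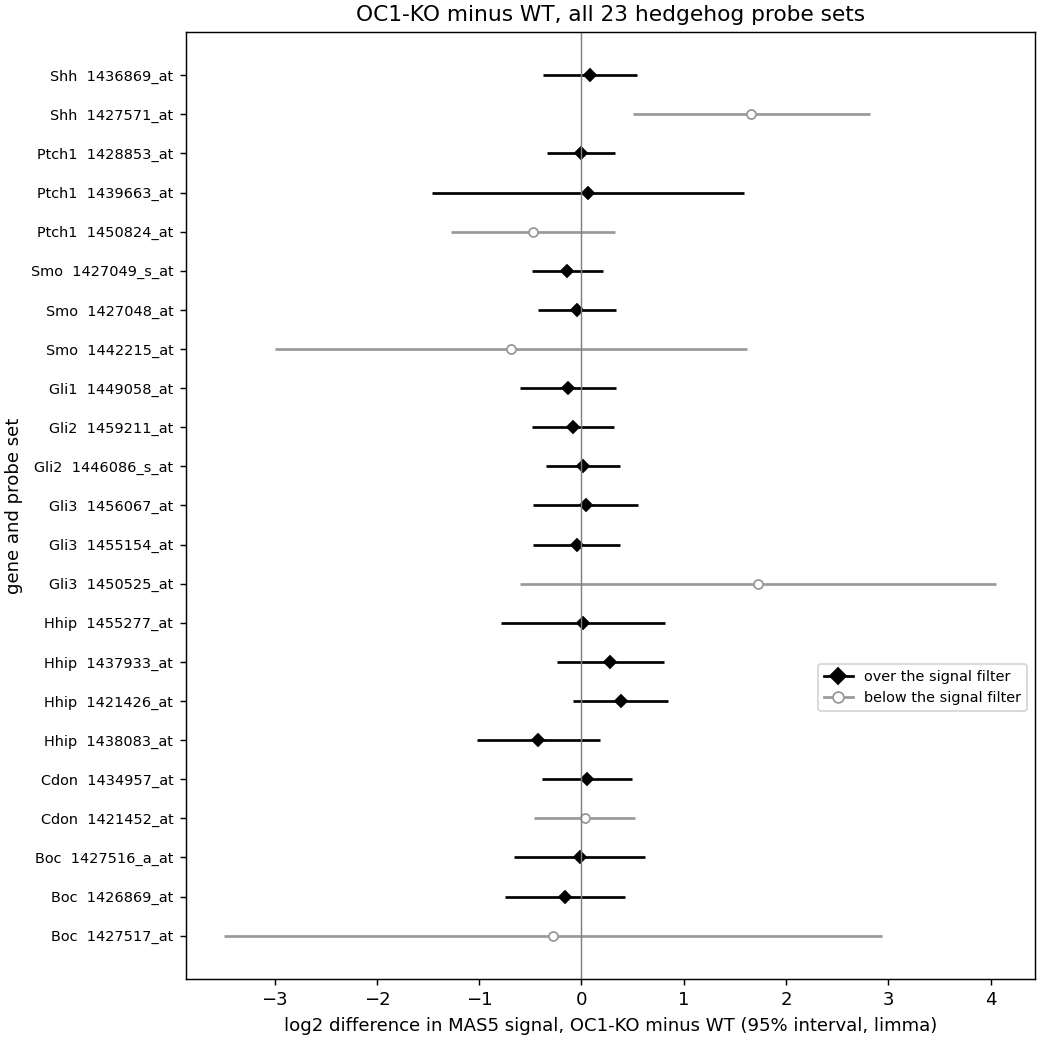
Log2 difference in MAS5 signal, OC1-KO minus WT (x axis), with its 95% limma interval for all 23 hedgehog probe sets (y axis), n = 3 per genotype. Filled diamonds are the 17 over the signal filter, and each of their intervals includes 0. Open circles are the 6 below it, of which Shh 1427571_at has an interval above 0.

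By embryo number, the members were called about as often as all probe sets. Ptch1, Gli1, Gli3 and Hhip each had a probe set that was lowest in both embryos numbered 3, while Cdon and Boc were highest there. An F test of embryo number in limma, with genotype in the fit, gave an adjusted p under 0.05 for 1 of 17 member probe sets (5.88%) and for 0 of the 9 brightest ones, against 5.32% of all probe sets. That 1 was Ptch1 1439663_at, where embryo 3 lay below the mean of embryos 1 and 2 by 1.94 in OC1-KO and by 1.53 in WT on the log2 scale (adjusted p = 0.0399). The brightest Ptch1 probe set had differences of -0.20 in OC1-KO and -0.06 in WT, and an unadjusted p of 0.530 by limma for number, so the drop was seen on the dimmer probe set. With no filter the adjusted p of 1439663_at was 0.349, and it was left out by a filter of 8.

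Hhip 1455277_at was lower in embryo 3 by 1.03 in OC1-KO and by 0.63 in WT, with an adjusted p of 0.0606 by limma. Gli1 was lower by 0.36 in OC1-KO and by 0.42 in WT, with an adjusted p of 0.130. Gli3 1456067_at was lower by 0.33 in OC1-KO and by 0.43 in WT, with an adjusted p of 0.112. Other probe sets of these genes did not share the drop: Gli3 1455154_at differed by 0.16 in OC1-KO and -0.02 in WT, Hhip 1437933_at by -0.50 in OC1-KO and 0.04 in WT, and Hhip 1438083_at by -0.35 in OC1-KO and 0.08 in WT. Hhip 1421426_at differed by -0.07 in OC1-KO and -0.09 in WT. The drops of the first probe sets passed the threshold only under other settings, all 3 with an intensity trend in the variance (adjusted p of 0.0184 for Hhip, 0.0486 for Gli1 and 0.0385 for Gli3), and Hhip also with the filter of 8 (0.0285) and with an offset of 32 (0.0451).

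In the opposite direction, Boc 1427516_a_at was higher in embryo 3 by 0.35 in OC1-KO and 0.57 in WT (adjusted p = 0.0743), and Cdon by 0.46 in OC1-KO and 0.11 in WT (adjusted p = 0.289). Boc 1426869_at was also higher, by 0.71 in OC1-KO and 0.31 in WT (adjusted p = 0.153). So the co-receptors Cdon and Boc lay on the other side of 0 from Ptch1, Gli1 and Hhip 1455277_at.

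Both embryos numbered 3 were below the other 4 arrays in 5 of 17 member probe sets (both of Ptch1, Gli1, Gli3 1456067_at and Hhip 1455277_at, 29.4%), against 23.5% of all probe sets. Both were above in 3 (Cdon and both of Boc, 17.6%), against 14.9%. These shares were close to those of the whole array. Beside them, lens markers summed as above, 11 of 13 genes being highest in both embryos 3, and 5 of 8 red blood cell genes were. The sum of 11 periocular mesenchyme markers was 2593 in OC1-KO 3 and 3027 in WT 3, against 527 to 773 in the other arrays, with 8 of 11 highest in both. That of 9 pigment epithelium markers was 2324 in OC1-KO 3 and 1012 in WT 3, against 378 to 863. It was also higher in OC1-KO than in WT in the other pairs, with 727 in OC1-KO 1 against 494 in WT 1 and 863 in OC1-KO 2 against 378 in WT 2. The sum of 13 ganglion cell markers, the cells that make Shh, was 99063 in OC1-KO 3 and 93974 in WT 3, against 73713 to 87738. Of these 13 genes, 6 were highest in both. The sum of 10 macrophage markers was 1485 in OC1-KO 3 and 1344 in WT 3, against 1097 to 1273, with 4 of 10 highest in both. That of 11 progenitor markers overlapped, with 97600 in OC1-KO 3 and 82378 in WT 3, against 70995 to 88013. Other sums were lower in embryos 3. That of 7 horizontal cell markers was 4223 in OC1-KO 3 and 4878 in WT 3, against 4919 to 5662. That of 10 endothelium and pericyte markers was 1874 and 1818, against 1935 to 2673. In each of these 2 lists, 1 gene was lowest in both. No marker had a signal of 0, and the part of these tissues in the member values was not tested.

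**Figure D3:**
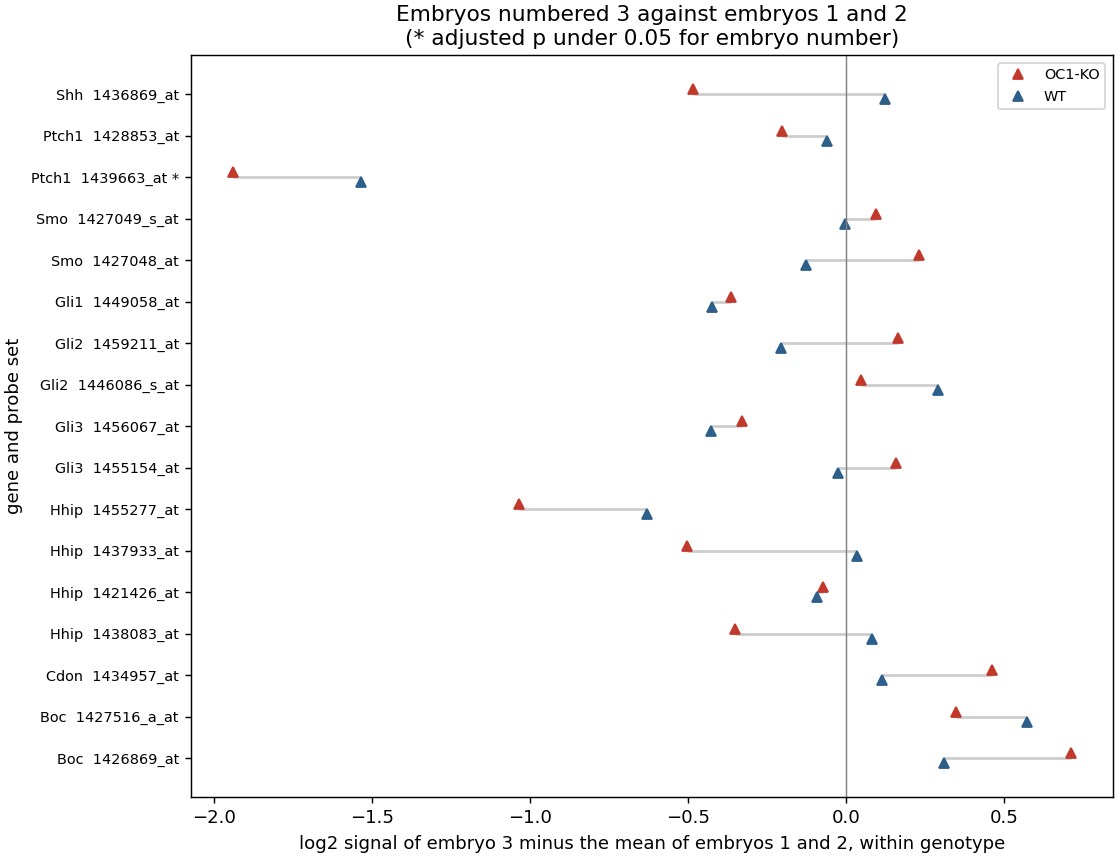
Log2 signal of embryo 3 minus the mean of embryos 1 and 2 (x axis) within OC1-KO (red) and WT (blue) for the 17 hedgehog probe sets over the filter (y axis). Each triangle is 1 embryo and the grey lines join the genotypes. Ptch1 1439663_at, marked by a star, lies farthest from 0 (-1.94 in OC1-KO, -1.53 in WT), while Cdon and Boc lie above 0 in both.

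The rest of the pathway was read from 5 lists of 87 genes, of which 81 have a probe set of their own and 68 passed the filter. Of those 68, 33 were higher and 35 lower in OC1-KO, and their log2 differences had a median of -0.02 and ran from -0.33 to 0.44. By limma 0 had an adjusted p under 0.05 and 0 an unadjusted p under 0.05, and the methods' t-test gave 0 without adjustment. With embryo number as a block, 2 of 68 had an unadjusted p under 0.05 (Gas1 and Ccnd2), against 4.37% of all probe sets, and 0 had an adjusted one.

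Among ligands and genes of ligand release, 7 of 13 listed passed the filter, with 3 higher and 4 lower and a median of -0.02. The other ligands of the family, Ihh and Dhh, lay below the filter, with differences of -0.05 and -0.17. Disp1, which releases the lipid-modified ligand from the cell that makes it, averaged 7.98 ± 0.15 in OC1-KO and 7.80 ± 0.17 in WT (SD, n = 3 each), 0.18 higher in OC1-KO (SE 0.16, limma, unadjusted p = 0.307).

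Among receptors and membrane modulators, 6 of 10 passed, with 1 higher and 5 lower and a median of -0.07. Gas1, a membrane-anchored co-receptor, was the higher one, at 11.46, 11.44 and 12.44 in OC1-KO and 10.95, 11.29 and 11.79 in WT retinas. It was above WT in 3 of 3 pairs, by 0.51, 0.16 and 0.65. OC1-KO was higher in 3 of 3 pairs in 2153 of all 20888 probe sets and in 11 of the 68 genes. For Gas1, embryo 3 was the highest of each genotype, as for Cdon and Boc. In 14.9% of all probe sets both embryos numbered 3 lay above the other 4 arrays. The Gas1 difference of 0.44 between the genotypes had an SE of 0.34 (limma, unadjusted p = 0.233, and 0.0236 with embryo number as a block). The pigment epithelium sum was likewise higher in OC1-KO in 3 of 3 pairs, and its part in the values of Gas1 and Ccnd2 was not tested. Of the 4 pigment epithelium markers over the filter, 2 were higher in 3 of 3 pairs. Lrp2, an endocytic receptor for Shh, lay below the filter with a difference of 0.02.

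Of the 16 cytoplasmic regulators of the Gli factors, all passed, with 6 higher and 10 lower and a median of -0.07. Sufu, which holds the Gli factors in the cytoplasm, measured 9.73, 9.88 and 10.10 in OC1-KO and 9.98, 10.01 and 10.15 in WT retinas. It was lower in OC1-KO in 3 of 3 pairs, a difference of -0.14 with an SE of 0.16 (limma, unadjusted p = 0.402). Of all probe sets, 13.1% were lower in 3 of 3 pairs, and of the 68 genes 10 were. Kif7, the kinesin of the cilium tip that regulates Gli processing, differed by -0.10 (SE 0.21).

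Of 28 cilium genes 24 passed, with 14 higher and 10 lower and a median of 0.01. The intraflagellar transport gene Ift140 was the 1 gene of the 68 whose groups did not overlap, against 3.56% of all probe sets over the filter. It was higher in OC1-KO by 0.14 (limma, unadjusted p = 0.310). The summed signal of this list was 17564 in OC1-KO 3 and 17280 in WT 3, against 18024 to 19016 in the other arrays. Of its 26 genes with a probe set, 8 were lowest in both embryos 3 and 3 were highest. Other pathway sums were higher there. That of 16 cytoplasmic regulators was 40178 in OC1-KO 3 and 40148 in WT 3, against 36047 to 39153. That of 7 receptors and membrane modulators was 9649 and 8250, against 7162 to 8020. The sums of the ligand and target lists overlapped.

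Of 20 reported target genes 15 passed, with 9 higher and 6 lower and a median of 0.00. The cell cycle and growth targets Ccnd1 and Mycn differed by 0.11 (SE 0.24) and -0.05 (SE 0.16), and Hes1, a repressor of neurogenesis that also answers to Notch, by 0.00 (SE 0.19). Ccnd2, the cyclin D2 gene, measured 9.83, 9.85 and 11.61 in OC1-KO and 9.48, 9.59 and 11.01 in WT retinas. The growth factor gene Igf2 measured 10.00, 9.95 and 12.31 in OC1-KO and 10.01, 9.55 and 11.67 in WT retinas. These were the 2 of the 68 with an adjusted p under 0.05 for embryo number (limma, 0.0399 each), against 5.32% of all probe sets. Both were high in embryos 3. Of the members that are targets, Ptch1 1439663_at, Gli1 and Hhip 1455277_at were low there, and only the Ptch1 probe set passed that threshold. Ift140, Ccnd2 and Igf2 were picked after their values were seen.

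The genes whose brightest probe set had the pattern most like that of Shh across the 6 arrays, by the root mean square difference of centred log2 signals, were Cpne8 (0.0415), Igsf8 (0.0509) and Ccng2 (0.0517). The median over 10528 other genes was 0.264, and the spread of Shh about its own mean was 0.192. For Gli1 they were Togaram1 (0.0290), Sybu (0.0355) and Tes (0.0403), beside a median of 0.263 and a spread of 0.209. These are the closest of many genes over 6 arrays.

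Gli factors bind a motif with the consensus GACCACCCA, and RefSeq's promoter table for GRCm38.p6 lists 6 of the 9 genes (Ptch1, Smo, Gli2, Gli3, Hhip and Cdon). The 250 bases before each start were searched on both strands for TGGGTGGTC and its reverse complement GACCACCCA, and for the 7-letter core GGGTGGT or ACCACCC, which lies within it. The full motif was found in 0 of the 6, and in 0.225% of the 32851 promoter windows of the table. The core was found in Gli2 alone, 205 bases before the start, and in 3.92% of all windows. The promoters of Gli2, with the core in capitals, and of Ptch1, the receptor gene that is a target of the pathway, are shown because they set a match and no match side by side. A match describes letters and says nothing of binding, and no match covers this window only. The Gli2 window is chr1:119053620-119053869 and the Ptch1 window chr13:63565736-63565985, both on the minus strand and written 5′ to 3′.
Gli2: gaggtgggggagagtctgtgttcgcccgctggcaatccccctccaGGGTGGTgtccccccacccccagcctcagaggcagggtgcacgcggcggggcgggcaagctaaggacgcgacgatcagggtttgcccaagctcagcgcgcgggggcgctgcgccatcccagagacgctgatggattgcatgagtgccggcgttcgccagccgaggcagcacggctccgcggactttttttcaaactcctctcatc
Ptch1: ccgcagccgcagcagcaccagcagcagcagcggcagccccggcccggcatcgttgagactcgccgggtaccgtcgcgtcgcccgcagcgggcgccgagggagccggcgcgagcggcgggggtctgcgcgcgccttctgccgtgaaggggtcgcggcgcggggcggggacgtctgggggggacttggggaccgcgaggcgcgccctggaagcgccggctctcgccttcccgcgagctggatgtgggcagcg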

How the data were processed

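The values the authors deposited are linear MAS5 intensity per probe set for 6 Affymetrix Mouse Genome arrays. MAS5 corrects the background, summarises the probes of a set and scales the arrays, here to a mean of 500 after a 2% trim. Its version is not stated. Amplified RNA was used. Log2 was taken here, with no further scaling, and 64 controls were left out of 45101 probe sets. Of these, 34958 map to 1 symbol and 932 to several, and the others to none. Probe sets with a mean log2 signal over 7 in OC1-KO or WT were kept, after the methods.

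The genotypes were set against each other with limma 3.58.1 (R 4.3.3, lmFit and eBayes without trend, two-sided), adjusting p-values by Benjamini-Hochberg across the 20888 probe sets kept. Values for probe sets below the filter come from a fit of all probe sets. Embryo number was tested by an F test in the fit of genotype and number. Deviations from the group means of same-numbered arrays correlated at 0.51, 0.57 and 0.67, and those of others at -0.44 to -0.04. Such deviations cancel within a genotype, so positive values for same-numbered arrays by themselves push the others down. From the values of the same-numbered arrays, the numbers were taken as pairs, although the labels do not state pairs. The precision depends on the number of arrays and on whether embryo number is in the fit. Without a block, the p-values for genotype set a difference against the spread between single embryos of a genotype. With embryo number in the fit, they set it against the spread left after genotype and number.

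The members and lists were chosen with earlier results of these data known. The text names all 9 members, each first by its brightest probe set, then a set of fixed pathway genes and any with an unadjusted limma p under 0.05, and for Shh and Gli1 the 3 genes most like each. One item of the pathway lists is not reported here. Alternatives changed the offset, filter, normalization, variance trend, arrays used, pairing, test and probe set. The fits were tested on simulated data. Python 3.11.15, pandas 2.3.3, numpy 2.4.6 and matplotlib 3.10.9 were used.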

Additional observations from a re-analysis of the deposited data

How the results depend on the processing

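No setting gave a genotype call at an adjusted p under 0.05, for members or for all probe sets. At an unadjusted p under 0.05 the 210 probe sets of the whole array became 1305 with no filter, 117 with the filter of 8, 121 with an intensity trend and 477 in embryos 1 and 2 alone, and 185 to 441 with 1 array left out (328 without OC1-KO 1 and 441 without OC1-KO 3). With embryo number as a block, the pairing of the arrays, they became 913, and the member count of 0 became 1 (Hhip 1438083_at). The block changed no other member call. The member count was also 1 with no filter (Shh 1427571_at) and 0 to 1 with an array left out, the 1 being Hhip 1438083_at without WT 1. For embryo number, the 1111 calls became 1905 with an offset of 32, 0 with no filter, 2308 with the filter of 8 and 4106 with an intensity trend, and the 1 member call became 2, 0 and 4 with the offset, no filter and the trend. Of 139 alternatives for the 9 genes, 118 kept their direction, 21 reversed, and the lowest adjusted p was 0.999. Alternatives that changed only the filter, the variance trend, the block or the test left the difference itself unchanged. They could not reverse it, so the 118 overstate how stable the directions were. The reversals were these: in embryos 1 and 2 alone Ptch1 was at 0.042, Cdon at -0.062 and Boc at 0.055, and on other probe sets Ptch1 was at 0.064, Gli2 at 0.019, Gli3 at -0.048 and Hhip at -0.42. With 1 array left out, Shh ran from -0.070 to 0.24, Ptch1 from -0.053 to 0.061, Gli2 from -0.15 to 0.025, Gli3 from -0.10 to 0.22, Hhip from -0.20 to 0.36, Cdon from -0.10 to 0.16 and Boc from -0.23 to 0.19, while Smo and Gli1 stayed below 0 (-0.21 to -0.07 and -0.27 to -0.01). The arrays whose omission reversed a sign were OC1-KO 1 for Shh, OC1-KO 3 or WT 2 for Ptch1 and Cdon, OC1-KO 2 or WT 1 for Gli2, OC1-KO 2 or WT 3 for Gli3, OC1-KO 1, OC1-KO 2 or WT 3 for Hhip, and OC1-KO 1 or WT 3 for Boc. The filter of 8 left Boc out. The cause of these changes was not tested, beyond the smaller or larger number of probe sets tested. The SE was wider below the filter (median 0.70 over 6 member probe sets) than over it (0.20 over 17).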
